A study of Capra hircus with 2 samples.

Results

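IFNGR2, IFNAR1 and IL10RB are neighbouring genes that encode receptor chains for interferons and for cytokines related to IL10. They were taken by name, 3 of the 154 complete genes of a single-cell expression table from goat ovary. In RefSeq's ARS1.2 assembly they follow each other directly on chromosome 1, after GART, DNAJC28 and TMEM50B. The sources used here name no build for the deposited table, so no coordinates are given.

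Class II cytokine receptors work as pairs of unlike chains, and each chain carries a Janus kinase on its inner side. IFNGR2 is the signalling chain of the receptor for interferon gamma, where it joins IFNGR1 and brings JAK2. IFNAR1 is a chain of the type I interferon receptor, which it forms with IFNAR2, and it binds TYK2. IL10RB also binds TYK2 and is shared by the receptors for IL10, IL22 and the lambda interferons, each of which adds a chain of its own. After ligand binding the kinases phosphorylate STAT proteins, which enter the nucleus and switch on genes such as the interferon-stimulated genes.

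The cells came from Ji'ning grey goats. They were ovarian granulosa cells, the somatic cells around the oocyte, brought into suspension with TrypLE and captured with the Chromium 3' kit of the V2 chemistry, which reads unique molecular identifiers (UMIs) near the 3' end of transcripts. A single library, HGC in the labels, came from goats of high fertility (more than 3 kids per birth) and another, LGC, from goats of low fertility (fewer than 2). The sources used here give neither their ages nor how many goats stand behind a library.

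HGC held 7106 cells with a median of 7214.5 UMIs and LGC 3345 cells with a median of 11080 UMIs. The libraries shared 27 cell barcodes. None of the 7 granulosa markers looked for (among them FSHR, CYP19A1 and FOXL2) is among the 154 genes, and the 7 leukocyte, 4 stromal and 3 endothelial markers are not either, so the label of the cells was not checked here against markers. UPK1B was the only member of the marker lists that could be read. Of 22 genes of class II receptors, Janus kinases, STATs and their regulators, the 3 receptor genes alone were present, and of 15 interferon-stimulated genes none; partner chains, kinases and targets were not analysed here. With 1 library per group no test between groups was possible. Intervals below are exact 95% intervals that cover counting error only. Those of observed over expected numbers cover the observed count alone and take the expected number as exact, so they are somewhat too narrow. A difference between libraries cannot be told apart from one between goats, dissections or preparations.

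IFNGR2 was counted often enough for comparisons within each library, whereas IFNAR1 and IL10RB gave few UMIs. IFNGR2 gave 2846 UMIs in HGC and 2458 UMIs in LGC. This is a level of 44.6 CPM (UMIs per 1000000; 43.0 to 46.3) in the former and 53.8 CPM (51.7 to 56.0) in the latter. IFNAR1 gave 110 UMIs, 1.72 CPM (1.42 to 2.08), in HGC and 80 UMIs, 1.75 CPM (1.39 to 2.18), in LGC. IL10RB gave 67 UMIs, 1.05 CPM (0.814 to 1.33), against 70 UMIs, 1.53 CPM (1.19 to 1.94). How fully the 3' ends of each gene were captured and annotated was not tested here, so these levels set no order of abundance between the genes.

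Between the libraries, IFNGR2 was lower in HGC, with a ratio high over low of 0.829 (0.785 to 0.876). IL10RB had a ratio of 0.686 (0.483 to 0.972) and IFNAR1 of 0.985 (0.732 to 1.33), which does not separate the libraries. None of these ratios reached 1.5-fold. Among 101 genes that reached 100 UMIs over the libraries, 11.9% stood 1.5-fold or more higher in HGC and 5.94% in LGC, and the median ratio of all 101 was 1.12. Against that median, IFNGR2 and IL10RB lay on the low side. When cells were split into 8 ranges of depth, IFNGR2 was higher in LGC in 7 ranges, IL10RB in 7 and IFNAR1 in 5.

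**Figure D1:**
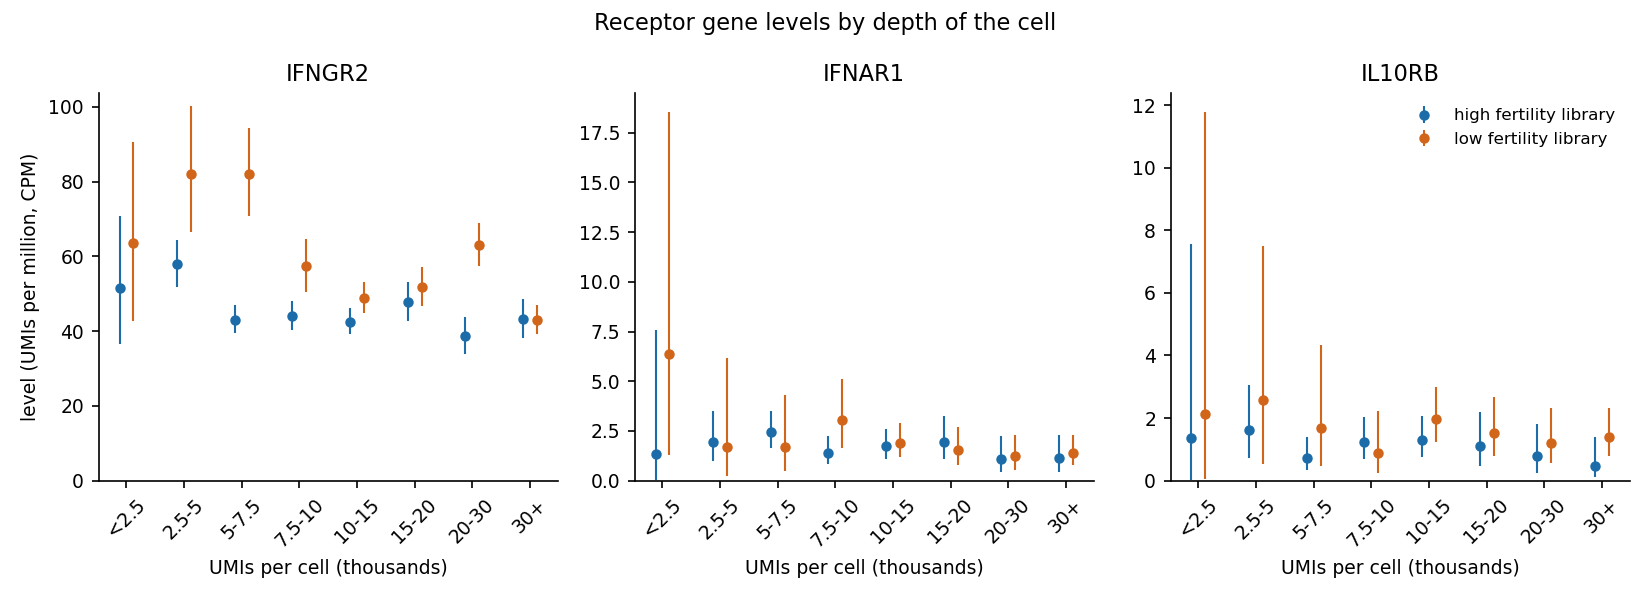
Level of IFNGR2, IFNAR1 and IL10RB (CPM, vertical axes) in 8 ranges of UMIs per cell (horizontal axes) in the high (HGC) and low fertility (LGC) library, with exact 95% counting intervals. The LGC points of IFNGR2 lie above the HGC points in 7 of 8 ranges, while the intervals of IFNAR1 and IL10RB are wide.

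IFNGR2 was found in 1831 cells of HGC (25.8%) and in 1247 cells of LGC (37.3%). IFNAR1 was found in 109 cells (1.53%) and 77 cells (2.30%), and IL10RB in 66 cells (0.929%) and 70 cells (2.09%). Since the LGC cells were deeper, these shares are not comparable as they stand. With each cell thinned to 2000 UMIs, the shares were 8.22% and 10.2% for IFNGR2, 0.374% and 0.424% for IFNAR1, and 0.239% and 0.351% for IL10RB; 209 HGC and 132 LGC cells were too shallow for this. At this depth the receptor genes other than IFNGR2 were found in so few cells that no change is read from their shares. No cell class known to lack these genes could be named, so the share that free RNA adds was not tested.

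IFNGR2 was spread unevenly over cells of like depth. If every cell of a depth range had held the same level, 115 cells of HGC would have carried 3 or more IFNGR2 UMIs, and 238 did. In LGC 199 cells would have done so and 284 did. The excess grew with the count, as 5 or more UMIs were seen in 50 cells where 8.81 would have been counted, and in 92 cells against 26.1. The most in a single cell were 9 UMIs in HGC and 14 UMIs in LGC. The variance of IFNGR2 was 1.63 times its mean at matched depth in HGC, rank 17 of the 50 genes with at least 500 UMIs there, and 2.2 times in LGC, rank 8 of 39. For IFNAR1 the same quotient was 0.999 and 1.04, and for IL10RB 1.02 and 0.971, where a common level read with counting error alone gives 1. With so few UMIs per cell the quotient lies close to 1 even for a gene that is spread unevenly. Whether IFNAR1 and IL10RB are evenly spread can therefore not be told from it.

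By the number of cells holding both genes, IFNGR2 with IFNAR1 or IL10RB was not distinguishable from independent detection. IFNAR1 and IL10RB were too rare for many shared cells to be expected. IFNGR2 was found in 43 of the 109 IFNAR1 cells of HGC, where independent detection at matched depth gives 34.9 (quotient 1.23, 0.892 to 1.66). In LGC it was found in 47 of 77, against 34.9 (1.35, 0.990 to 1.79). IFNGR2 was found in 15 of the 66 IL10RB cells of HGC, against 20.9 (0.717, 0.401 to 1.18), and in 37 of the 70 of LGC, against 33.3 (1.11, 0.783 to 1.53). All of these intervals include 1. IFNAR1 and IL10RB met in 0 cells of HGC, where 1.24 were to be counted, and in 1 cell of LGC, against 2.2. That single cell also held IFNGR2 and was the only one with all 3 genes. At least 1 of the genes was found in 27.4% of HGC and 39.2% of LGC cells.

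Other genes were then compared between cells with an IFNGR2 UMI and cells without, in each library on its own. Positive cells were deeper, with a median of 9163 UMIs against 6734 in HGC and 13789 against 9735.5 in LGC. For each gene the UMIs in positive cells were therefore divided by those to be counted at the level of negative cells of the same depth range. A cell could qualify on a single UMI, as 1242 of the HGC and 706 of the LGC positive cells did, so cells that express IFNGR2 also stand among the negative ones. A gene was counted as different at a ratio of 1.5 either way and at least 20 UMIs, observed and expected together. A gene with few expected UMIs could reach this minimum only by being higher in positive cells. This held in HGC for ENSCHIG00000021536 (39 observed, 5.16 expected) and CRYBG3 (15 observed, 7.82 expected).

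In HGC 23 of 118 genes (19.5%) were higher in IFNGR2-positive cells and 3 (2.54%) lower. In LGC 25 of 117 (21.4%) were higher and 4 (3.42%) lower. Of 112 genes read in both, 15 (13.4%) were higher in both and 0 (0.00%) lower in both. The minimum of UMIs favoured higher genes, so the contrast of 15 with 0 rests in part on that rule. The counts of lower genes moved with the setting: without the cells above 15000 UMIs they were 9 in HGC, 9 in LGC and 3 in both. The median ratio over all genes read was 1.06 in HGC and 1.03 in LGC. Cells with IFNGR2 thus carried more of a limited set of genes, of which 11 have a symbol and 4 only an identifier.

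**Figure D2:**
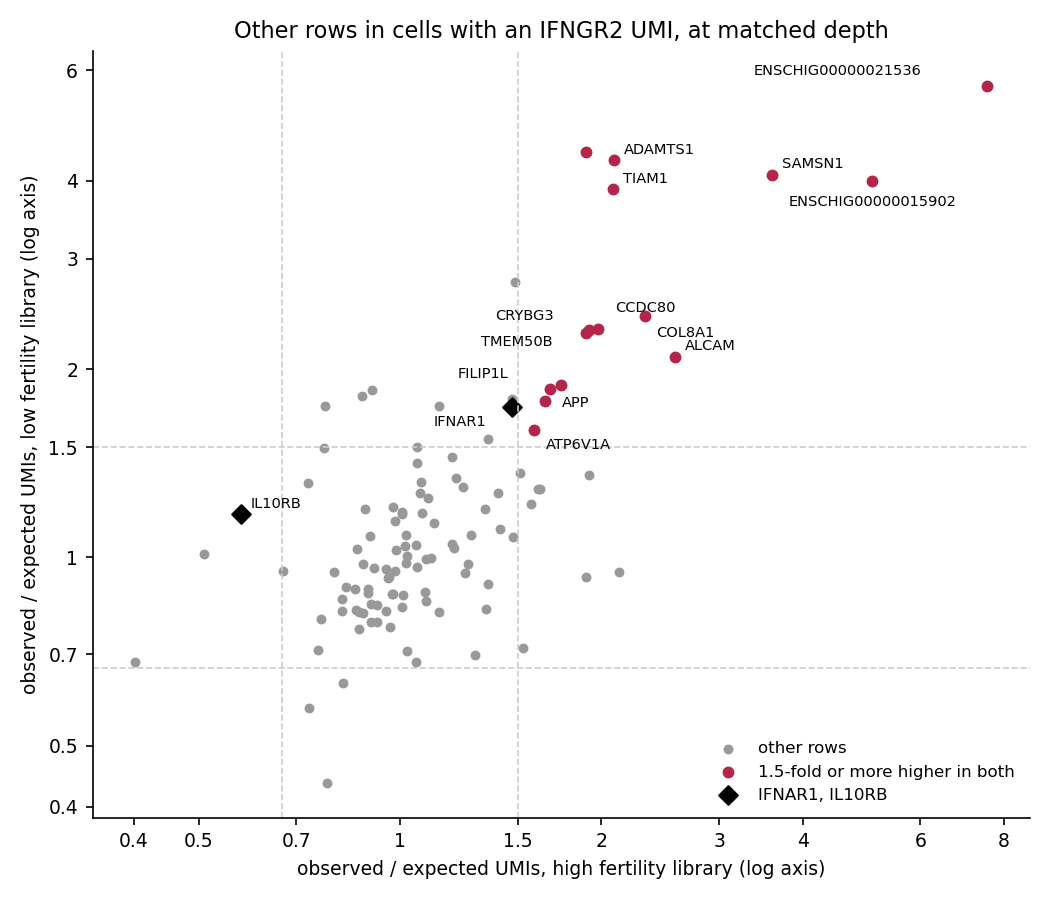
Ratio of observed to expected UMIs of each other gene in cells with an IFNGR2 UMI, in HGC (horizontal, log axis) and LGC (vertical, log axis), with dashed lines at 1.5-fold either way. The 15 red points are 1.5-fold or more higher in both libraries, led by ENSCHIG00000021536, ENSCHIG00000015902 and SAMSN1; IFNAR1 lies just left of the line and IL10RB on the low side in HGC.

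SAMSN1, an adaptor protein known from lymphocytes and other blood cells, had the highest ratios of the genes with a symbol in HGC. Its 550 UMIs in positive cells were 3.60 times (3.30 to 3.91) the 153 to be counted, and the level was 24.3 CPM in positive against 10.7 CPM in negative cells. In LGC its 471 UMIs were 4.09 times (3.73 to 4.47) the number to be counted, with 20.5 against 8.80 CPM. A SAMSN1 UMI was present in 17.7% of IFNGR2-positive and 4.89% of IFNGR2-negative cells of HGC, and in 20.5% and 5.24% of those of LGC. A link between SAMSN1 and these cells was known from earlier results of this table, so it is described here and is no independent find. TIAM1, an exchange factor that activates the small GTPase Rac, had ratios of 2.08 (1.80 to 2.4) in HGC and 3.88 (3.31 to 4.52) in LGC. ALCAM, an adhesion molecule of the immunoglobulin superfamily, had ratios of 2.57 (2.36 to 2.81) and 2.09 (1.82 to 2.4). SAMSN1, TIAM1 and ALCAM stayed above 2-fold in both libraries without the cells above 15000 UMIs, at 4.07 and 4.12, 2.72 and 3.65, and 3.01 and 2.11.

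COL8A1, CCDC80 and ADAMTS1 encode secreted proteins; they were grouped here after their values were seen, and no list of matrix genes was fixed. FSTL1, another secreted protein of the table, had ratios of 0.965 (0.795 to 1.16) in HGC and 0.776 (0.609 to 0.974) in LGC. COL8A1, a chain of collagen VIII, had ratios of 2.33 (2.09 to 2.58) in HGC and 2.43 (2.03 to 2.89) in LGC. CCDC80, a secreted protein bound to matrix, had ratios of 1.98 (1.87 to 2.09) and 2.32 (2.09 to 2.58). ADAMTS1, a protease of the matrix that cuts versican and is known from ovulation, had ratios of 2.09 (1.90 to 2.29) and 4.31 (3.77 to 4.92). Some of these ratios rested on deep cells. Without those above 15000 UMIs ADAMTS1 had a ratio of 1.29 in HGC and CCDC80 of 1.48 in LGC, both short of 1.5-fold, whereas COL8A1 kept 1.73 and 2.34.

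The remaining genes with a symbol had smaller ratios or few UMIs. FILIP1L, a protein that binds filamin A, had ratios of 1.67 (1.55 to 1.81) and 1.86 (1.61 to 2.13). APP, the amyloid precursor protein, had ratios of 1.65 (1.35 to 1.99) and 1.78 (1.25 to 2.45). ATP6V1A, the catalytic subunit of the vacuolar proton pump, had ratios of 1.58 (1.38 to 1.81) and 1.60 (1.40 to 1.81), the closest to the bound from inside. FILIP1L and APP too leaned on deep cells: without those above 15000 UMIs they had ratios of 1.48 and 1.41 in HGC and 0.918 and 1.28 in LGC, and ATP6V1A 1.41 in the latter. In LGC, ATP6V1A had a ratio of 1.30 without the cells holding SAMSN1, and FILIP1L of 1.25 without those holding CCDC80 or COL8A1. CRYBG3 rested on 15 and 26 UMIs, with ratios of 1.92 (1.07 to 3.16) and 2.31 (1.51 to 3.38). Without the cells holding CCDC80 or COL8A1 its ratio in HGC was 0.917. Of the genes with an identifier only, ENSCHIG00000021536 had ratios of 7.55 (5.37 to 10.3) and 5.67 (4.35 to 7.27) on 39 and 62 UMIs, and ENSCHIG00000015902 of 5.09 (4.50 to 5.72) and 3.99 (3.55 to 4.47) on 276 and 299 UMIs. Just outside the bound stood HUNK (1.47 and 1.79), SYNJ1 (1.48 and 2.76) and IFNAR1 (1.47 and 1.74), which passed in LGC only.

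IFNAR1 and IL10RB had unlike ratios in this comparison. IFNAR1 had 44 UMIs in the IFNGR2-positive cells of HGC, 1.47 times (1.07 to 1.98) the number to be counted, and 49 UMIs in those of LGC, 1.74 times (1.29 to 2.30). IL10RB had 16 UMIs, 0.578 times (0.330 to 0.938), and 37 UMIs, 1.17 times (0.825 to 1.62). IFNAR1 thus had a ratio above 1 in both libraries. IL10RB had a ratio below 1 in HGC and was not distinguishable in LGC. These intervals take the expected number as exact, although it rests on few UMIs of IFNGR2-negative cells. By the cells holding both genes, given above, neither gene was separated from independent detection. The HGC ratios of IFNAR1 and IL10RB are therefore not read as differences. Taken the other way round, IFNGR2 in cells with IFNAR1 was 1.18 (0.915 to 1.49) and 1.67 (1.39 to 1.98) times the level of cells without it. In cells with IL10RB it was 0.854 (0.572 to 1.23) and 0.951 (0.742 to 1.20) times. For IFNAR1 in LGC the UMI ratios thus lay above 1 both ways, while the cells holding both genes gave 1.35 (0.990 to 1.79). The measures differ there, and the reason was not tested. In IFNAR1-positive cells 2 of 49 genes (4.08%) were higher and 2 (4.08%) lower in HGC, and 11 of 54 (20.4%) higher and 2 (3.70%) lower in LGC. Of 48 genes read in both libraries 0 (0.00%) were higher in both and 0 lower, and in IL10RB-positive cells 0 of 40 (0.00%) were higher in both and 0 lower. With 66 to 109 such cells per library, few genes reached the minimum of UMIs.

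Among the 10 neighbours of the receptor genes in the table, 9 could be read. TMEM50B, a small membrane protein gene next to IFNGR2, was higher in IFNGR2-positive cells of both libraries, with ratios of 1.89 (1.70 to 2.11) and 2.28 (2.03 to 2.56). Its level was 15.2 against 8.53 CPM in HGC and 13.0 against 6.87 CPM in LGC. GART, an enzyme of purine synthesis, had ratios of 0.772 (0.386 to 1.38) and 1.75 (1.07 to 2.70) on 11 and 20 UMIs. SYNJ1, a phosphoinositide phosphatase, had ratios of 1.48 (0.880 to 2.35) and 2.76 (1.87 to 3.91) on 18 and 31 UMIs, and 1.11 in LGC without the cells above 15000 UMIs. SON, a nuclear speckle protein that was the most counted of the neighbours, had ratios of 0.958 and 0.928, and CRYZL1 of 0.896 and 0.891. By count, 1 of the 9 was higher in HGC and 3 in LGC, beside 19.5% and 21.4% of all genes read, with medians of 1.07 and 1.27 beside 1.06 and 1.03. TMEM50B was the only neighbour of the 9 that passed in both libraries, where 13.4% of all genes did, so in HGC and in both the neighbours were not called more often than other genes.

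Of 12 genes linked to leukocytes, 7 were in the table and 5 had enough UMIs. SAMSN1 and ALCAM were higher in each library and in both, 2 of the 5, beside 19.5% (HGC), 21.4% (LGC) and 13.4% (both) of all genes read. NFKBIZ, a nuclear regulator of NF-kB target genes, had ratios of 1.40 (1.36 to 1.44) and 1.27 (1.22 to 1.31), and 1.55 and 1.75 without the cells above 15000 UMIs. CD47, the signal that tells phagocytes not to engulf, had ratios of 1.06 (0.893 to 1.25) and 1.41 (1.24 to 1.61), and CD200, which restrains myeloid cells, of 1.27 (1.15 to 1.39) and 0.976 (0.867 to 1.10). CD96 and CD80, which are more specific to leukocytes than these, had too few UMIs to be counted. The median ratio of the 5 was 1.40 and 1.41, beside 1.06 and 1.03 over all genes read. As none of the defining leukocyte markers was among the 154 genes, the part of leukocytes in these ratios was not tested.

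LSAMP, an adhesion molecule outside the fixed lists that was picked after its values were seen, went the other way. Its 53 UMIs in IFNGR2-positive cells of HGC were 0.402 times (0.301 to 0.526) the number to be counted, and its 47 UMIs in those of LGC 0.681 times (0.5 to 0.905), just short of the bound.

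The ratios of SAMSN1, ALCAM and TMEM50B, among others, followed the number of IFNGR2 UMIs in the cell. SAMSN1 stood at 2.65 times the level of IFNGR2-negative cells in the 1242 HGC cells with 1 IFNGR2 UMI, at 4.96 times in the 351 cells with 2 and at 6.68 times (5.58 to 7.94) in the 238 cells with 3 or more. In LGC it stood at 2.01, 5.22 and 8.34 times (7.27 to 9.53) in 706, 257 and 284 cells. ALCAM went from 1.92 to 3.20 and 4.003 times, and from 1.42 to 1.99 and 3.26 times. TMEM50B went from 1.55 to 2.36 and 2.58 times, and from 1.76 to 2.47 and 3.08 times. ENSCHIG00000021536 rose as well, on few UMIs. In HGC it went from 4.22 to 9.48 (4.33 to 18.0) and 22.8 times (12.8 to 37.7), the last on 15 UMIs against 0.657 expected. In LGC it went from 1.57 to 4.72 (2.36 to 8.44) and 18.3 times (13.1 to 24.8), the last on 41 UMIs against 2.25. These intervals take the small expected numbers as exact. ENSCHIG00000015902 went from 3.21 to 6.34 and 12.9 times, and from 1.92 to 4.66 and 7.94 times. TIAM1 reached 8.83 times (7.06 to 10.9) in LGC cells with 3 or more, but 2.41 times (1.67 to 3.37) in those of HGC. ADAMTS1 stood at 1.95, 2.07 and 2.62 times in HGC and at 4.47, 4.68 and 3.72 times in LGC, where no such order was seen and the intervals overlap. PROS1, the vitamin K-dependent protein S, went down from 1.03 to 0.882 and 0.760 times in HGC and from 0.937 to 0.788 and 0.653 times in LGC; it too was picked after its values were seen.

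**Figure D3:**
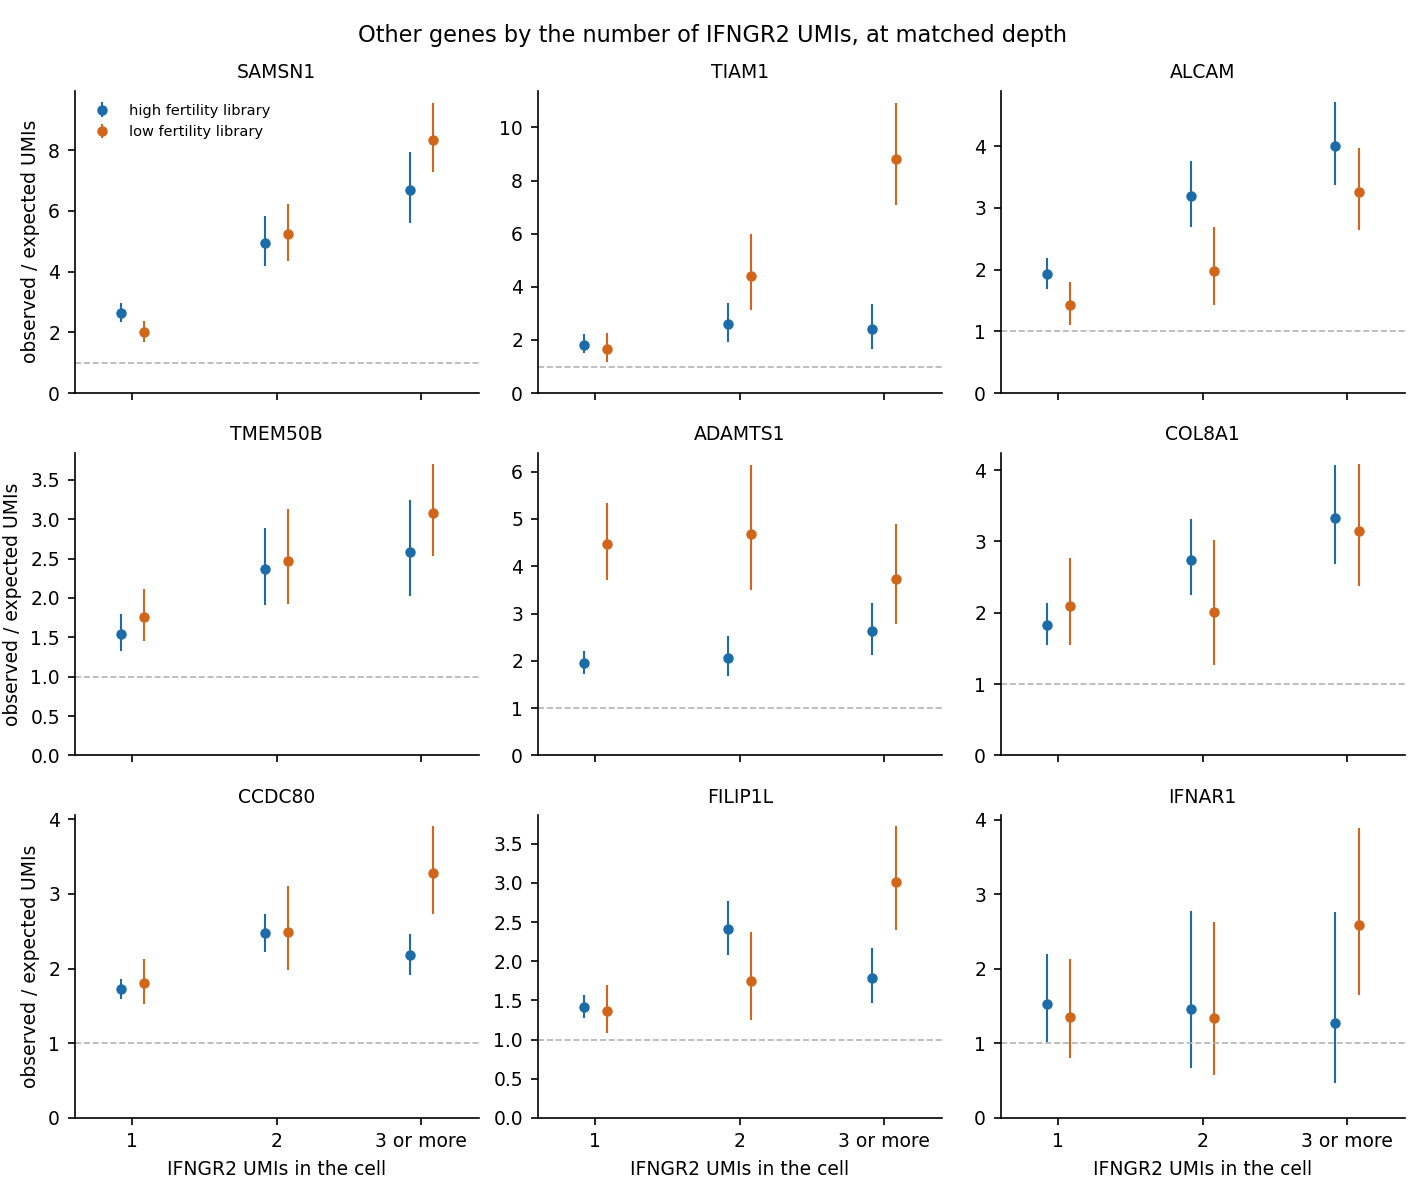
Observed over expected UMIs of 9 genes (vertical axes, linear from 0) in cells with 1, 2, or 3 or more IFNGR2 UMIs (horizontal axes) against cells with none, in both libraries, with exact 95% counting intervals and a dashed line at 1. SAMSN1, ALCAM and TMEM50B are higher with each step in both libraries, and the intervals of ADAMTS1 overlap between steps in LGC.

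The cells were next sorted by what they held other than IFNGR2, and its level was read in each class. These classes rest on single genes and are no cell types. SAMSN1, CCDC80, COL8A1 and ADAMTS1 had already been seen to be higher in IFNGR2-positive cells of the same libraries. A higher IFNGR2 level in cells holding them is thus the same link read from the other side, and no independent find. In cells with SAMSN1 but without CCDC80, COL8A1 or ADAMTS1, IFNGR2 stood at 131.7 CPM in HGC (468 cells) and at 154.3 CPM in LGC (313 cells). In cells with none of the 4 genes it stood at 33.7 and 39.7 CPM. At matched depth the former were 3.88 times (3.54 to 4.24) and 3.80 times (3.50 to 4.12) the latter. An IFNGR2 UMI was present in 54.9% of the SAMSN1 cells and 19.9% of the cells with none of the genes in HGC, and in 68.1% and 29.7% in LGC.

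Cells with CCDC80 or COL8A1 alone had IFNGR2 at 1.70 times (1.55 to 1.86) and 1.46 times (1.31 to 1.63) the level of cells with none of the 4 genes. Cells with ADAMTS1 alone had it at 1.38 times (1.15 to 1.65) in HGC and at 1.04 times (0.791 to 1.35) in LGC, where it was not distinguishable. Where ADAMTS1 came with CCDC80 or COL8A1 the values were 1.56 (1.31 to 1.83) and 2.45 (1.98 to 3.01). Where SAMSN1 came with CCDC80 or COL8A1 they were 2.94 (2.43 to 3.52) and 2.73 (2.24 to 3.30). The class with SAMSN1 alone thus had the highest IFNGR2 level of those compared, and the class with ADAMTS1 alone the lowest. IFNAR1 in the former was 1.13 times (0.456 to 2.34) and 2.11 times (1.12 to 3.61) the level of cells with none, on 7 and 13 UMIs, and IL10RB 0.749 and 0.712 times on 3 and 4 UMIs. Where SAMSN1 came with CCDC80 or COL8A1, IL10RB in HGC had 7 UMIs in 105 cells against 1.09 to be counted, 6.43 times (2.58 to 13.2), and in LGC 1 UMI against 1.36.

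**Figure D4:**
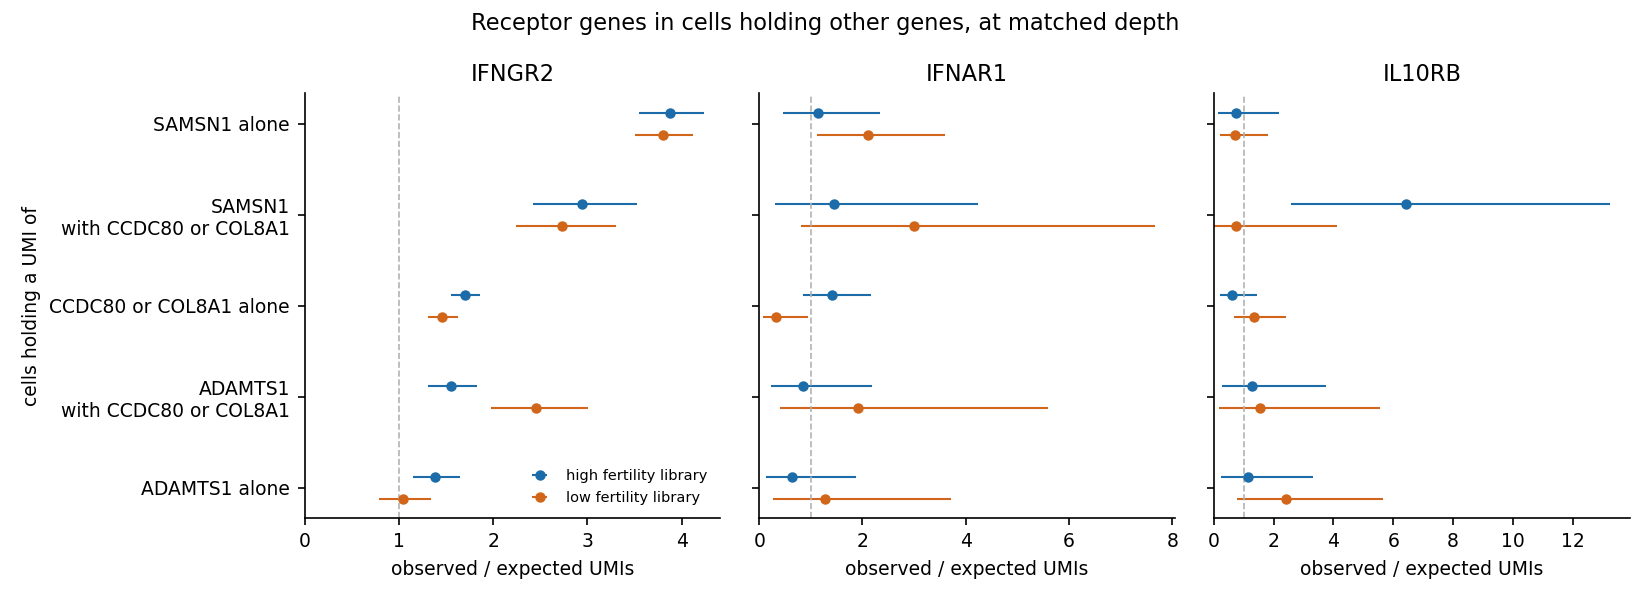
IFNGR2, IFNAR1 and IL10RB UMIs over those expected at matched depth (linear axes) in cells sorted by SAMSN1, CCDC80 or COL8A1, and ADAMTS1, against cells with none of these, in both libraries, with exact 95% counting intervals. For IFNGR2 the cells with SAMSN1 alone stand highest, at 3.88 and 3.80 times, and the cells with ADAMTS1 alone lowest, at 1.38 and 1.04 times. IFNAR1 and IL10RB rest on few UMIs, their intervals are wide and they do not follow this order.

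SAMSN1 and ADAMTS1, both higher in IFNGR2-positive cells, were seldom in the same cell. They met in 10 cells of HGC where independent detection at matched depth gives 33.6, and in 3 cells against 12.0 in LGC. Among IFNGR2-positive cells they met in 3 against 22.2 and in 2 against 11.4. SAMSN1 and TIAM1 met in 100 cells against 28.3 and in 70 against 21.0, and SAMSN1 and ENSCHIG00000015902 in 114 against 25.0 and 131 against 33.1. SAMSN1 and ADAMTS1 thus fell on IFNGR2-positive cells that overlapped little. Of the IFNGR2-positive cells, 58.5% in HGC and 60.7% in LGC held no UMI of SAMSN1, CCDC80, COL8A1 or ADAMTS1.

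Between the libraries, the ratio of IFNGR2 high over low was 0.848 (0.786 to 0.915) in cells with none of the 4 genes and 0.854 (0.756 to 0.963) in cells with SAMSN1 alone. In cells with CCDC80 or COL8A1 alone it was 1.01 (0.874 to 1.16), at 54.1 against 53.7 CPM. In cells with ADAMTS1 alone it was 1.18 (0.861 to 1.64), at 44.6 against 37.7 CPM. Among these classes, IFNGR2 was thus lower in HGC in cells with none of the 4 genes and with SAMSN1 alone, and not distinguishable in the others. In all cells with CCDC80 or COL8A1, whatever else they held, the ratio was 0.877 (0.784 to 0.982). In all cells with ADAMTS1 it was 0.813 (0.667 to 0.995), so IFNGR2 was lower in HGC in these wider classes too. None of these ratios was taken at matched depth.

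The library difference in IFNGR2 varied over the modes of ENSCHIG00000012599, an abundant gene of the table whose deposited values form separate low and high modes. In cells at or above a value of 2.5, IFNGR2 stood at 56.1 CPM in HGC and 47.2 CPM in LGC, a ratio of 1.19 (1.11 to 1.27). In cells below 2.5 it stood at 31.6 and 71.6 CPM, a ratio of 0.442 (0.402 to 0.484). These ratios were not taken at matched depth. In low-mode cells LGC was higher in every depth range. In high-mode cells the order was mixed. LGC was higher there at 5000 to 7500 UMIs (87.5 CPM against 70.8 CPM in HGC). It was also higher at 10000 to 15000 and at 20000 to 30000 UMIs, and HGC was higher in the other ranges. The lower IFNGR2 level of HGC was thus found in the cells of the low mode. The opposite order in the high mode was seen over all its cells together, but not in every depth range. Read within each library at matched depth, IFNGR2 in high-mode cells was 1.68 times (1.61 to 1.76) the level of low-mode cells in HGC, and higher in 8 of 8 depth ranges. In LGC it was 0.677 times (0.644 to 0.711), and higher in 2 of 8 ranges. Without the cells above 15000 UMIs these values were 1.96 (1.85 to 2.07) and 0.898 (0.832 to 0.967), and without the cells holding SAMSN1 1.51 (1.43 to 1.59) and 0.682 (0.643 to 0.723). The comparison of modes was added after the data were seen.

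Across the 8 depth ranges of both libraries, 16 points in all, the genes most like each receptor gene in level were listed by Pearson's r of log2(CPM + 1). The points share depth and library, so the values describe and are not tested. For IFNGR2 they were COX17, which carries copper to cytochrome oxidase (0.785), C3orf38 (0.753) and ENSCHIG00000002425 (0.688). For IFNAR1 they were CHMP2B, a subunit of the ESCRT machinery (0.812), ENSCHIG00000016358 (0.795) and QTRT2, a subunit of the enzyme that puts queuine into transfer RNA (0.768). For IL10RB they were ENSCHIG00000015902 (0.693), C3orf38 (0.676) and IFNGR2 (0.654). SAMSN1 was not among the 3 nearest of IFNGR2 over depth ranges.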

How the data were processed

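The values the authors deposited, genes by cells, are on a natural log scale. Cell Ranger 2.2.0 is named in the submitters' processing notes. Build, annotation and the filter on cells: not given in the sources used here. Each value equals the natural log of 1 plus 10000 times a gene's UMIs over the cell's total. The UMIs and totals were worked back from this: all 177610 values above 0 came out whole within 0.0001, and in 10442 of 10451 cells the smallest value stood for 1 UMI. The table used here holds 154 complete genes (117 with a symbol) and ends within the next, which was left out. Column prefixes gave each cell's library (HGC or LGC), and 0 columns lacked one. The libraries summed to 63769786 UMIs (HGC) and 45674506 UMIs (LGC); a count of 0 allows up to 0.047 and 0.0657 CPM (3 UMIs).

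CPM are summed UMIs over summed totals of all genes. Depth ranges were bounded at 2500, 5000, 7500, 10000, 15000, 20000 and 30000 UMIs. Ratios between libraries have exact binomial (Clopper-Pearson) intervals. Observed over expected UMIs have exact Poisson intervals of the observed UMIs, divided by the expected number, whose own error is left out. No test was run, cells were not clustered and doublets were not called. Genes were named if 1.5-fold higher or lower in both libraries (at most 15 each way, 2 of them by identifier), or as members of lists of pathway genes, neighbours and leukocyte-linked genes. The genes and lists were chosen with earlier results of these data known. Python 3.11.15 with numpy 2.4.6, scipy 1.17.1 and pandas 2.3.3 was used, and the calculation was checked on simulated counts. That check drew positive cells at a single rate per depth range and counts with counting error alone. It therefore does not cover differences of depth within a range or a more uneven spread over cells. Settings varied were depth ranges, thresholds, scaling and left-out cells.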

Additional observations from a re-analysis of the deposited data

Results flagged for a closer look

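In 5 cases the ratio lay on opposite sides of 1 in the libraries and its counting interval excluded 1 in both; other ratios on opposite sides of 1, with an interval that included 1, are not listed. Whether they differ between high and low fertility was not tested, since each group has 1 library. IFNGR2 in cells with ENSCHIG00000012599 at 2.5 or more was 1.68 times the level of the other cells in HGC and 0.677 times in LGC. CHODL, a membrane protein with a lectin domain, was 0.771 times (0.611 to 0.959) the level to be counted in IFNGR2-positive cells of HGC and 1.49 times (1.09 to 1.99) in those of LGC. ENSCHIG00000022046 in IFNGR2-positive cells had ratios of 1.06 (1.04 to 1.08) and 0.965 (0.946 to 0.984). ENSCHIG00000012599 in IFNAR1-positive cells had ratios of 1.09 (1.06 to 1.12) and 0.915 (0.892 to 0.938). ENSCHIG00000011680 in IL10RB-positive cells had ratios of 0.868 (0.834 to 0.904) and 1.04 (1.01 to 1.06). The last 3 are small and come from abundant genes, where counting error is slight. The spread between cells is not covered by these intervals. At matched depth the variance over all cells of HGC and LGC was 48.2 and 57.6 times the mean for ENSCHIG00000012599. It was 5.73 and 8.11 times for ENSCHIG00000011680, and 1.98 and 2.73 times for ENSCHIG00000022046. These last 3 ratios are therefore not shown to be separate from 1.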

How the results depend on the processing

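The IFNGR2 ratio high over low was 0.740 when divided by the median ratio of 18 abundant genes (1.12, a shift of 0.16 on the log2 scale) and 0.762 when standardised over depth ranges. Thinned shares of cells were 8.22%, 10.2%, 0.374%, 0.424%, 0.239% and 0.351%, as given above. Genes higher in IFNGR2-positive cells numbered 8 (HGC), 12 (LGC) and 7 (both) at a ratio of 2; at the other settings the number higher in both ranged from 12 to 18. Genes lower in HGC, 3 as reported, numbered 6 with 20 depth ranges, 8 with 2 or more IFNGR2 UMIs, 9 without cells above 15000 UMIs, 5 without cells holding CCDC80 or COL8A1, 1 at a minimum of 50 UMIs, 10 without a minimum and 1 at a ratio of 2. In LGC, where 4 are reported, they numbered 8 with 20 depth ranges, 10 with 2 or more IFNGR2 UMIs, 9 without cells above 15000 UMIs, 2 at 50 UMIs, 12 without a minimum and 2 at a ratio of 2. Genes lower in both libraries, 0 as reported, numbered 2, 2, 3, 1 and 3 with 20 depth ranges, 2 or more IFNGR2 UMIs, no cells above 15000 UMIs, no cells holding CCDC80 or COL8A1, and no minimum. CRYBG3 in HGC was at 0.917 without cells holding CCDC80 or COL8A1, and FILIP1L in LGC at 0.918 without cells above 15000 UMIs. Without the latter cells, IFNAR1 and IL10RB met in 0 cells of LGC (quotient 0). The cause was not tested. Leaving out cells by SAMSN1, CCDC80 or COL8A1 was chosen after seeing the data. Over the 13 named genes that were higher, 119 of 176 recomputed ratios stayed within the counting interval, 55 moved, 2 turned and 12 were below 1.5. No paired analysis was possible because HGC and LGC are 1 library each. IFNAR1 and IL10RB, with 67 to 110 UMIs per library, show only large differences at this depth.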
